A study of Homo sapiens with 4 samples.

Results

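The insulin-like growth factor (IGF) axis was followed in LX-2 cells, a human hepatic stellate cell line, through 10 genes: the ligand gene IGF2, the receptor genes IGF1R and IGF2R, and the binding protein genes IGFBP1 to IGFBP7. They were taken by gene symbol from a table of 63241 genes, and 9 of the 10 were among the 16099 genes that reached 1 scaled count per 1000000 counts (CPM) in at least 1 library. The family was chosen by the measured fall of IGFBP5 with RVX-208 against TGF-β alone, with earlier results of these libraries known. RNA was sequenced from cells given TGF-β with BDS4, TGF-β with RVX-208, TGF-β alone, or neither (control), with 1 library per condition. All cells were first starved for 24 h in medium with 0.5% serum. TGF-β was used at 20 ng/mL and each compound at 5 µM, for 24 h. RVX-208, also called apabetalone, inhibits BET bromodomain proteins, and BDS4 is a code name in a study about inhibitors of the first bromodomain of those proteins. The column name of the TGF-β library includes DMSO and that of the control does not, so vehicle and TGF-β cannot be told apart in that comparison.

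IGF2 and its relative IGF1 signal mainly through IGF1R, a receptor tyrosine kinase at the cell surface. IGF2R, also known as the cation-independent mannose 6-phosphate receptor, carries lysosomal enzymes to the lysosome and takes up IGF2 for breakdown without a kinase of its own. The IGF binding proteins are secreted, hold IGFs with high affinity in the case of IGFBP1 to IGFBP6, and either keep the ligand from its receptor or release it when they are cut by proteases. IGFBP7 binds IGFs only weakly and is also found as a matrix protein. In the liver, hepatocytes are the main source of circulating IGF1 and of IGFBP1, while stellate cells and other mesenchymal cells make several of the other binding proteins.

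The libraries held 17022369 to 22503094 counts, and 3 counts, used as the lower limit of detection, correspond to 0.126 to 0.178 CPM. With 1 library per condition no spread between cultures is known, so no test was run. Intervals in parentheses are 95% exact counting intervals, which include no variation between cultures. The word called is used of genes that differed at least 2-fold between a pair of libraries with an interval that excluded a ratio of 1. The mesenchymal marker VIM stood between 3290 and 4080 CPM in all libraries, while LRAT, a marker of quiescent stellate cells, had 0 counts. Of 7 hepatocyte markers, 5 never exceeded 3 counts. The BDS4 library stood apart in mitochondrial ribosomal RNA, which took 0.903% of its counts, while the others gave 0.230% (RVX-208), 0.248% (TGF-β alone) and 0.212% (control). The 13 mitochondrial mRNAs went the other way, at 0.891% with BDS4, 1.48% with RVX-208, 1.49% with TGF-β alone and 1.47% in the control. The nuclear RNA NEAT1 stood at 968 CPM with BDS4, while RVX-208 gave 127, TGF-β alone 60.6 and the control 66.8 CPM. MALAT1, another nuclear RNA, stood at 69.0 CPM with BDS4, 69.1 with RVX-208, 24.4 with TGF-β alone and 40.9 in the control. In the BDS4 library 5 cholangiocyte and epithelial markers summed to 24.4 CPM, against 51.9 CPM with RVX-208, 105 CPM with TGF-β alone and 57.7 CPM in the control. Most of that sum was SOX9, at 22.9, 48.5, 91.1 and 50.1 CPM in the same order. KRT7 stood at 1.32, 2.44, 13.5 and 6.99 CPM in the same order, lowest with BDS4 and highest with TGF-β alone. KRT19, EPCAM and CDH1 never exceeded 10 counts. Whether the sum reflects an epithelial population was not tested. The 11 mesenchymal and stellate markers summed to 4672 CPM with BDS4, against 7740, 9246 and 5948 CPM in the same order. That sum mostly followed COL1A1, at 103, 2935, 4705 and 2075 CPM. PDGFRB, at 5.98, 63.3, 136 and 35.0 CPM, and TAGLN, at 242, 541, 700 and 378 CPM, were also lowest with BDS4. So were COL1A2, at 0.196, 1.60, 8.20 and 2.97 CPM, and ACTA2, at 19.2, 24.6, 27.0 and 21.5 CPM. VIM and THY1 were highest with BDS4, THY1 at 222, 121, 119 and 146 CPM. The part of these differences in the results with BDS4 was not tested. In bulk RNA, fewer cells that express a gene and less of its RNA per cell cannot be told apart.

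The promoter windows of 3 members are shown beside the expression pattern of their genes: IGFBP5 was lowest with the 2 compounds, and IGFBP3 and IGF2R were highest with BDS4. Each window is the 250 bases before the RefSeq start of the gene (GRCh38.p14), read 5′ to 3′ on the strand of the gene. RefSeq starts can differ from those of GENCODE 29, used for the gene positions given below. The IGFBP3 window lies inside the GENCODE gene, and so does most of the IGFBP6 window. Distances to the start hold for the RefSeq start only. Capitals mark TATA-like letters in IGFBP5 and IGFBP3 and the E-box letters CACGTG in IGF2R.
IGFBP5, chr2:216695550-216695799, minus strand: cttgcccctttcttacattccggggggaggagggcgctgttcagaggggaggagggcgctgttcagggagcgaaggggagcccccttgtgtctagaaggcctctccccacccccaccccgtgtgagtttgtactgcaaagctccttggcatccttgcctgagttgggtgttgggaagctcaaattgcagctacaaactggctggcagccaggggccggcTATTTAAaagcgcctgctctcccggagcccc
IGFBP3, chr7:45921273-45921522, minus strand: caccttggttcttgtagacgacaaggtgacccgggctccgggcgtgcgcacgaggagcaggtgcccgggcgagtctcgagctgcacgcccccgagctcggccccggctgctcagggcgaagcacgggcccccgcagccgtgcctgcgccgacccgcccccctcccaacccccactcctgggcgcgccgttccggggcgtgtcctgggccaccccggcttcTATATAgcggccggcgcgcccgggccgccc
IGF2R, chr6:159968832-159969081, plus strand: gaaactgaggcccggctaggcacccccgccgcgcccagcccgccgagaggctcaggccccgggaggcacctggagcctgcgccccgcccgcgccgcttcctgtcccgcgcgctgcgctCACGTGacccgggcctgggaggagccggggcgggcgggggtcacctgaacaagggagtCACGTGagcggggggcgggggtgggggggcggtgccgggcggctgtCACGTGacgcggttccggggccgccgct
The search covered both strands and 7 sets of letters over 34788 promoter windows of the same length. The IGFBP5 window held TATTTAA starting 31 bases before the gene start, and 4.19% of all windows held these letters. The IGFBP3 window held TATATA starting 30 bases before the start (3.76% of windows), and the IGFBP4 window held TATAAA starting 29 bases before it (10.8% of windows). The IGF2R window held CACGTG at 3 places, starting 132, 74 and 28 bases before the start. At least 1 copy was found in 6.31% of windows and at least 3 copies in 27 windows (0.0776%). CACGTG is the core of the CLEAR element, the letters bound by the lysosomal regulator TFEB, and is also bound by other factors such as MYC with MAX. The letters TGANTCA of an AP-1 site were found in 0 of the windows of IGF1R, IGF2R, IGFBP3, IGFBP4, IGFBP5 and IGFBP6, against 6.59% of all windows. The same 6 windows held 0 copies of the SMAD-binding letters CAGAC, against 38% of all windows. The GC box letters GGGCGG had 6 copies in the IGF2R window, 2 each in those of IGFBP3 and IGF1R, and 1 each in those of IGFBP4 and IGFBP6. The IGFBP5 window held 0 copies, and 42.6% of all windows held at least 1. G and C made up 61.2% (IGFBP5, IGFBP6) to 81.2% (IGF1R) of these 6 windows, and 79.2% for IGF2R, against a median of 58% over all windows. The shares of all windows were not matched for this, so they are not an even background for any of these letters. IGFBP2 has 3 windows, of which 1 held 3 copies of CAGAC and 1 held 1 copy. These matches describe letters only, and binding was not measured. Windows were matched for 7 of the 10 members, and IGF2, IGFBP1 and IGFBP7 were not analysed here.

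With BDS4, most genes of the family fell relative to TGF-β alone. IGF2, IGF1R, IGFBP4, IGFBP5, IGFBP6 and IGFBP7 were called lower (6 of 9 genes scored) and IGFBP2 and IGFBP3 higher (2 of 9), while 17.7% of all genes tested were called lower and 14.5% higher (32.2% in either direction). IGFBP2 entered the scored genes only through its level in the BDS4 library. The median log2 ratio of the 9 genes was -1.25 and their mean -0.57, while the median of all genes was -0.01. With TGF-β against control, IGF2 and IGFBP7 were called higher (2 of 9) and 0 lower, against 5.32% and 4.37% of all genes (9.68% in either direction). The median log2 ratio was 0.47 for the 9 genes and -0.01 for all genes. With RVX-208 against TGF-β alone, IGFBP5 was called lower (1 of 9), beside 5.25% of all genes, and 0 of 9 were called higher, beside 2.94% (8.19% in either direction). That contrast was used to choose the family, so this count is a description only. Between the compounds, which share dose and time, IGFBP2 and IGFBP3 were higher with BDS4 than with RVX-208 and IGF1R, IGFBP4 and IGFBP7 lower, that is 2 and 3 of 9, against 11.7% and 13.1% of all genes (24.8% in either direction). The comparisons with TGF-β alone share 1 TGF-β library, which is also on top of the comparison with the control. The level of IGFBP5 in that library was part of the choice. The counts and medians that include IGFBP5 in these comparisons are therefore descriptions only.

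**Figure D1:**
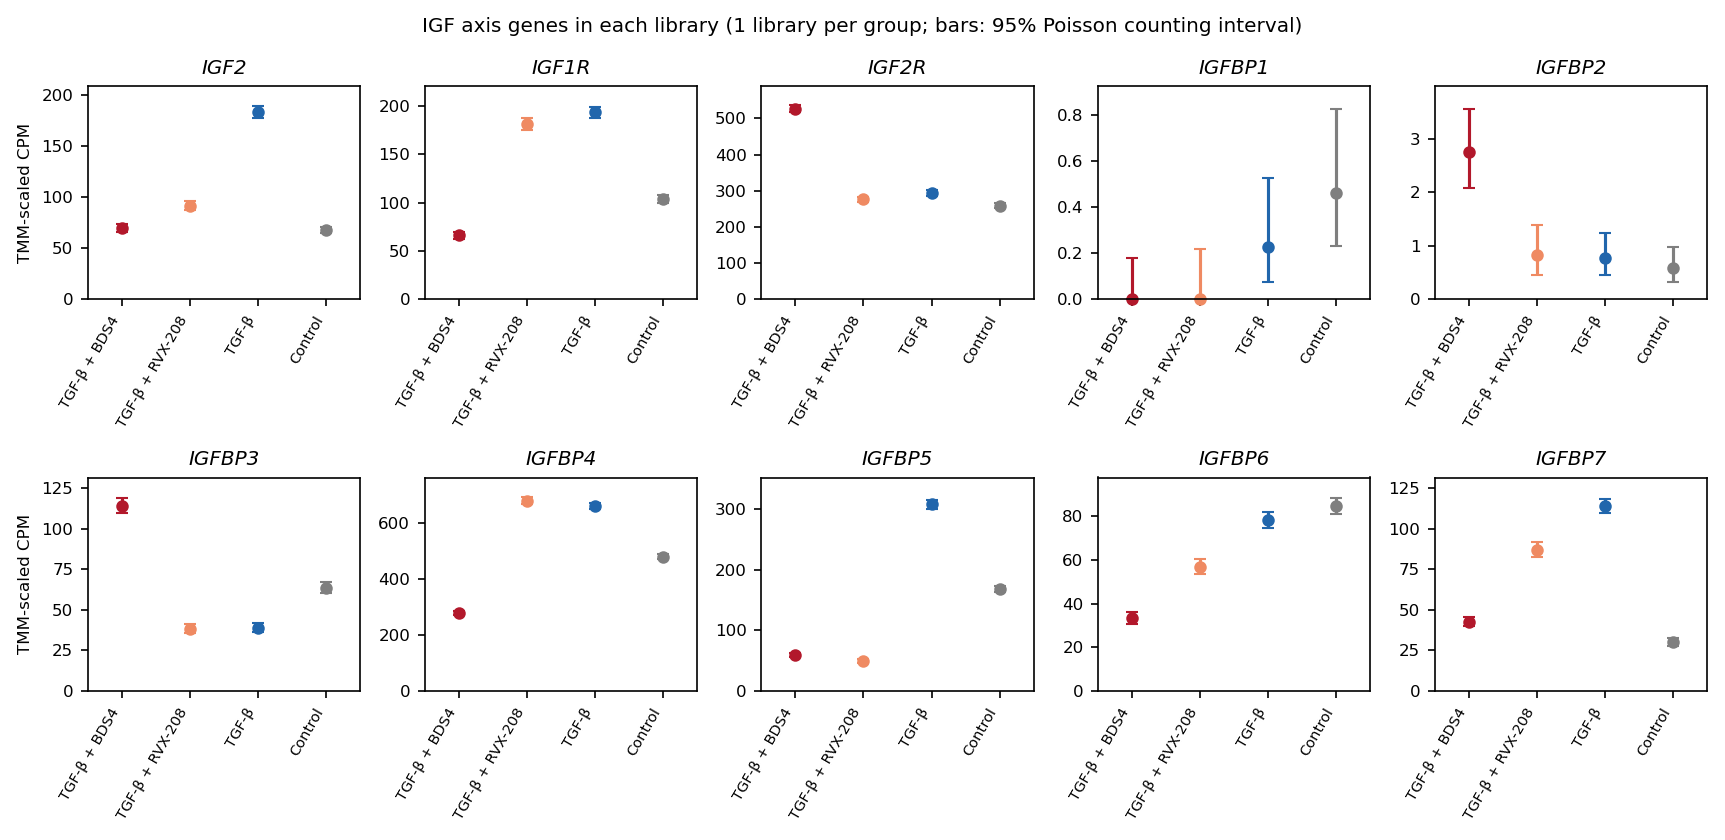
TMM-scaled counts per 1000000 (vertical axis, starting at 0, with its own scale per gene) of the 10 genes in the 4 libraries (horizontal axis); points are single libraries and bars 95% Poisson counting intervals. IGFBP5 stood at 58.5 CPM with BDS4 and 48.7 CPM with RVX-208, below the 308 CPM with TGF-β alone and the 167 CPM of the control, and IGFBP3 and IGF2R were highest with BDS4.

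IGF2 was the only IGF ligand gene with counts. It had 69.8 CPM (66.2 to 73.6) with BDS4, 91.7 CPM (87.2 to 96.4) with RVX-208, 183 CPM (178 to 189) with TGF-β alone and 67.8 CPM (64.5 to 71.2) in the control. The TGF-β library was therefore the high one, and the intervals of the BDS4 and control libraries overlapped. IGF2 rose 2.70-fold (2.55 to 2.86) with TGF-β against control and was 2.62-fold lower (2.47 to 2.79) with BDS4 than with TGF-β alone. With RVX-208 the ratio to TGF-β alone was 0.501 (0.472 to 0.531), just short of the 2-fold rule. The call depended on the scaling, and total counts gave a ratio of 0.490 and a call. Against the control, the ratio was 1.03 (0.959 to 1.11) with BDS4 and 1.35 (1.26 to 1.45) with RVX-208. IGF1 and INS, which encodes insulin, had 0 counts in all 4 libraries, where the 3-count limit of detection is 0.126 to 0.178 CPM.

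IGF2 lies at chr11:2129112-2149603 on the minus strand (GRCh38, GENCODE 29) in a crowded locus. An unnamed gene shares 73.7% of its exon bases on the same strand and had 3 counts with BDS4, 0 with RVX-208, 0 with TGF-β alone and 2 in the control, and the readthrough gene INS-IGF2 had 0 in all libraries. The antisense gene IGF2-AS had 6 counts with BDS4, 24 with RVX-208, 77 with TGF-β alone and 43 in the control. The library kit keeps strand, but the setting used in counting is not known, so reads over the 333 exon bases that IGF2-AS shares with IGF2 cannot be told apart. The IGF2 counts were 1424, 1544, 4044 and 1619 in the same order. H19, the maternally expressed non-coding neighbour of IGF2, had 16 counts with BDS4, 24 with RVX-208, 4 with TGF-β alone and 53 in the control. H19 was thus lowest in the library where IGF2 was highest, with a log2 ratio of -3.61 (-5.54 to -2.17) for TGF-β against control. Its 4 counts there are near the 3-count limit, and the other libraries did not follow a reverse order. IGF2 was alike with BDS4 and in the control while H19 differed. RVX-208 was above BDS4 for both genes, for H19 at 1.43 against 0.785 CPM.

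The receptor genes differed in direction under BDS4. IGF1R had 66.2 CPM (62.7 to 69.8) with BDS4, 181 CPM (175 to 188) with RVX-208, 194 CPM (188 to 200) with TGF-β alone and 104 CPM (100.1 to 108) in the control. It fell 2.93-fold (2.75 to 3.11) with BDS4 against TGF-β alone and stood 2.74-fold lower (2.57 to 2.92) with BDS4 than with RVX-208. With RVX-208 the ratio to TGF-β alone was 0.936 (0.893 to 0.981), and with TGF-β the ratio to control was 1.86 (1.77 to 1.95), neither of which was called. The BDS4 library was also below the control, at a ratio of 0.635 (0.594 to 0.679). IGF1R lies at chr15:98648539-98964530 on the plus strand.

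IGF2R had 527 CPM (517 to 537) with BDS4, 276 CPM (268 to 284) with RVX-208, 294 CPM (287 to 301) with TGF-β alone and 259 CPM (252 to 265) in the control. The BDS4 library was the highest, and the other 3 lay within 259 to 294 CPM, with no overlap of their intervals. The ratio of BDS4 to TGF-β alone was 1.79 (1.74 to 1.85) and that of BDS4 to RVX-208 was 1.91 (1.84 to 1.98), both short of the 2-fold rule. Against the control the ratio was 2.04 (1.97 to 2.10), which met it. IGF2R lies at chr6:159969099-160113507 on the plus strand, and its promoter window is the one with 3 CACGTG copies. M6PR, the small mannose 6-phosphate receptor that does not bind IGF2, stood at 150 CPM with BDS4, 127 CPM with RVX-208, 144 CPM with TGF-β alone and 130 CPM in the control.

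Levels of the 2 receptors were compared per length with the deposited FPKM values. IGF2R had 14.3 FPKM and IGF1R 3.68 FPKM with BDS4, an IGF2R to IGF1R ratio of 3.89 (3.68 to 4.12). The ratio was 0.745 (0.712 to 0.780) with RVX-208, 0.742 (0.714 to 0.772) with TGF-β alone and 1.21 (1.16 to 1.27) in the control. Which receptor mRNA was the more abundant with RVX-208 and with TGF-β alone depends on the gene lengths used. The deposited values imply 34.7 kb for IGF2R and 16.9 kb for IGF1R, while their merged GENCODE exons hold 17.8 and 13.9 kb. With the exon lengths, chosen after seeing the data, the ratio was 6.22 with BDS4, 1.19 with RVX-208, 1.19 with TGF-β alone and 1.94 in the control. The BDS4 library had the highest ratio with either set of lengths. INSR, the insulin receptor gene, had 31.4 CPM with BDS4, 27.1 CPM with RVX-208, 25.9 CPM with TGF-β alone and 20.5 CPM in the control, and was not called in any comparison.

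IGFBP5 encodes a binding protein with a basic, heparin-binding stretch that holds it in the matrix. It had 58.5 CPM (55.2 to 61.9) with BDS4, 48.7 CPM (45.4 to 52.2) with RVX-208, 308 CPM (301 to 316) with TGF-β alone and 167 CPM (162 to 173) in the control. Both compound libraries were lower than both others. With BDS4 it fell 5.27-fold (4.95 to 5.61) against TGF-β alone, the largest fall among the 9 genes in that comparison. The TGF-β level used there was part of the choice of the family, so this rank is a description only. With RVX-208 the fall was 6.33-fold (5.88 to 6.81), the value for which the gene was named in the choice. Between the compounds the ratio was 1.20 (1.10 to 1.31), not called. Against the control, IGFBP5 stood 2.86-fold lower (2.68 to 3.06) with BDS4 and 3.44-fold lower (3.19 to 3.71) with RVX-208. The ratio of TGF-β to control was 1.84 (1.77 to 1.91), not called.

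IGFBP5 lies at chr2:216672105-216695525 on the minus strand, and its neighbour IGFBP2 at chr2:216632828-216664436 on the plus strand, so that their 3′ ends face each other 7.7 kb apart. GENCODE also places an antisense gene over IGFBP5, which was not analysed here. Among 10381 protein-coding genes with at least 10 CPM in a library, the 3 whose pattern over the 4 libraries lay nearest to IGFBP5 were CD274, CLDN11 and DCDC2. Their distances, on centred log2(CPM + 1) values, were 0.457, 0.542 and 0.557. CD274, which encodes the immune checkpoint ligand PD-L1, had 7.01 CPM with BDS4, 5.41 CPM with RVX-208, 27.5 CPM with TGF-β alone and 21.7 CPM in the control. CLDN11, a tight junction claudin gene, had 31.2, 18.9, 101 and 80.0 CPM in the same order.

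IGFBP4, whose product is the classical substrate of the protease PAPP-A, was the most abundant binding protein mRNA. It had 278 CPM (271 to 285) with BDS4, 681 CPM (669 to 694) with RVX-208, 663 CPM (653 to 674) with TGF-β alone and 480 CPM (472 to 489) in the control. The BDS4 library alone was below the control. IGFBP4 fell 2.39-fold (2.31 to 2.46) with BDS4 against TGF-β alone and was 2.45-fold lower (2.37 to 2.53) than with RVX-208. With RVX-208 it differed little from TGF-β alone, at a ratio of 1.03 (1.002 to 1.052). IGFBP4 lies at chr17:40443461-40457731 on the plus strand.

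IGFBP6, which binds IGF2 in preference to IGF1, had 33.3 CPM (30.8 to 35.9) with BDS4, 56.9 CPM (53.4 to 60.6) with RVX-208, 78.4 CPM (74.7 to 82.2) with TGF-β alone and 84.7 CPM (81.1 to 88.5) in the control. Its level intervals overlapped between TGF-β and control, but the interval of their ratio, 0.925 (0.867 to 0.987), lay below 1. That ratio was not called, and both compound libraries were below TGF-β alone and the control. IGFBP6 fell 2.35-fold (2.15 to 2.58) with BDS4 against TGF-β alone, and with RVX-208 the ratio was 0.726 (0.670 to 0.786), not called. It lies at chr12:53097436-53102345 on the plus strand.

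IGFBP7, the weak IGF binder, had the largest rise of the family with TGF-β. It had 42.6 CPM (39.8 to 45.5) with BDS4, 87.2 CPM (82.8 to 91.8) with RVX-208, 114 CPM (110 to 119) with TGF-β alone and 30.1 CPM (27.9 to 32.3) in the control. The libraries fell into a clear order, with no overlap of intervals. The rise with TGF-β against control was 3.79-fold (3.49 to 4.13), and the fall with BDS4 against TGF-β alone was 2.68-fold (2.48 to 2.89). With RVX-208 the ratio to TGF-β alone was 0.765 (0.717 to 0.816), not called, and the level stayed 2.90-fold above the control (2.65 to 3.18). IGFBP7 was 2.05-fold lower (1.88 to 2.23) with BDS4 than with RVX-208. IGFBP7 lies at chr4:57030773-57110385 on the minus strand and shares 270 exon bases with POLR2B on the opposite strand, which had 7683 counts with BDS4, 4565 with RVX-208, 5558 with TGF-β alone and 6021 in the control. The same limit holds for reads over those bases.

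IGFBP3 encodes the main carrier of IGFs in serum and was higher with BDS4. It had 114 CPM (109 to 119) with BDS4, 38.4 CPM (35.5 to 41.5) with RVX-208, 38.9 CPM (36.3 to 41.6) with TGF-β alone and 63.6 CPM (60.4 to 66.8) in the control. The RVX-208 and TGF-β libraries overlapped and were the lowest, and the BDS4 library was the highest. IGFBP3 rose 2.93-fold (2.71 to 3.17) with BDS4 against TGF-β alone and was 2.97-fold higher (2.72 to 3.25) with BDS4 than with RVX-208. The ratio of TGF-β to control was 0.612 (0.562 to 0.666), not called. The ratio of RVX-208 to TGF-β alone was 0.986 (0.889 to 1.09).

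IGFBP2 and IGFBP1 were near the limit of detection. IGFBP2, which carries an integrin-binding RGD motif, had 56 counts with BDS4, 14 with RVX-208, 17 with TGF-β alone and 14 in the control, or 2.75 CPM (2.07 to 3.57), 0.832 CPM (0.455 to 1.40), 0.770 CPM (0.449 to 1.23) and 0.586 CPM (0.320 to 0.984). Only the BDS4 interval lay apart from the others. The ratio of BDS4 to TGF-β alone was 3.57 (2.04 to 6.55), and its lower bound is close to 2. IGFBP1 had 0 counts with BDS4, 0 with RVX-208, 5 with TGF-β alone and 11 in the control, below 1 CPM throughout, and was not scored. Against the control it was at least 3.13-fold lower with BDS4 and at least 2.58-fold lower with RVX-208, taking 3 counts per library as the limit and the control count as exact. With counting error in both libraries, the exact intervals reach down to 2.14-fold and 1.77-fold lower. IGFBP1 (chr7:45888357-45893668, plus strand) and IGFBP3 (chr7:45912245-45921874, minus strand) face each other 18.6 kb apart, and all 10 genes are annotated as protein-coding.

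**Figure D2:**
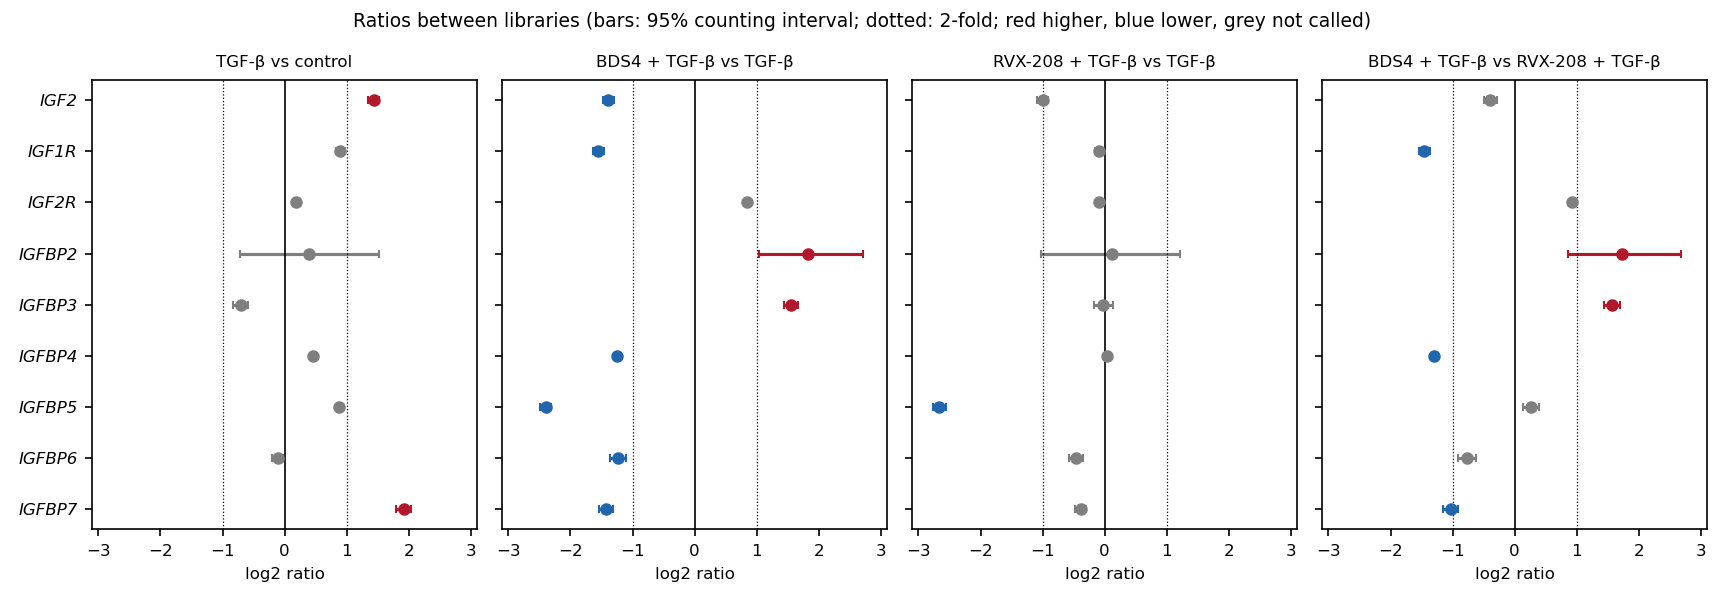
Log2 ratio (horizontal axis) of each scored gene (vertical axis) in the 4 comparisons, with 95% counting intervals; dotted lines mark 2-fold, red points genes called higher, blue points genes called lower and grey points genes not called. With BDS4 against TGF-β, 6 genes lie left of the 2-fold line and IGFBP2 and IGFBP3 right of it, while with RVX-208 IGFBP5 alone is called.

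Per length, IGFBP4 led in every library and the order below it changed. With BDS4 the deposited FPKM values ran from IGFBP4 at 119 through IGFBP7 at 19.5, IGFBP3 at 16.1, IGFBP6 at 12.0 and IGFBP5 at 7.35 to IGFBP2 at 0.355, with no overlap between neighbours in counting error. With RVX-208 they ran from IGFBP4 at 305 through IGFBP7 at 41.9 and IGFBP6 at 21.5 to IGFBP5 at 6.42 and IGFBP3 at 5.69, and the intervals of the last pair overlapped. With TGF-β alone the order was IGFBP4 at 304, IGFBP7 at 56.0, IGFBP5 at 41.4, IGFBP6 at 30.3 and IGFBP3 at 5.89. In the control it was IGFBP4 at 231, IGFBP6 at 34.4, IGFBP5 at 23.7, IGFBP7 at 15.5 and IGFBP3 at 10.1. The order below IGFBP4 depends on the lengths behind the FPKM values, which for IGFBP6 imply 2.61 kb against 1.35 kb of merged exons. With the exon lengths IGFBP4 still led in every library, but the intervals of IGFBP3, IGFBP6 and IGFBP7 overlapped along their order with BDS4. IGFBP5 ranked 5 with BDS4 and 3 in the control with either set of lengths. With RVX-208 it ranked 4 by FPKM and 5 by exon lengths, and with TGF-β alone 3 and 4.

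The summed FPKM of the 7 binding proteins was 174 with BDS4, 381 with RVX-208, 438 with TGF-β alone and 315 in the control. IGFBP4 made up 68.2% of the sum with BDS4, 80.1% with RVX-208, 69.4% with TGF-β alone and 73.4% in the control. IGFBP5 made up 4.22%, 1.68%, 9.47% and 7.51% in the same order, and IGFBP3 9.26%, 1.49%, 1.35% and 3.21%. IGFBP7 made up 11.2% with BDS4, 11.0% with RVX-208, 12.8% with TGF-β alone and 4.92% in the control. Without IGFBP4 the sum was 55.4 FPKM with BDS4, 75.7 with RVX-208, 134 with TGF-β alone and 83.9 in the control. Leaving out IGFBP5 as well, the gene behind the choice of the family, gave 48.0, 69.2, 92.3 and 60.2 FPKM in the same order. The RVX-208 library was therefore below the control with IGFBP5 and above it without.

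**Figure D3:**
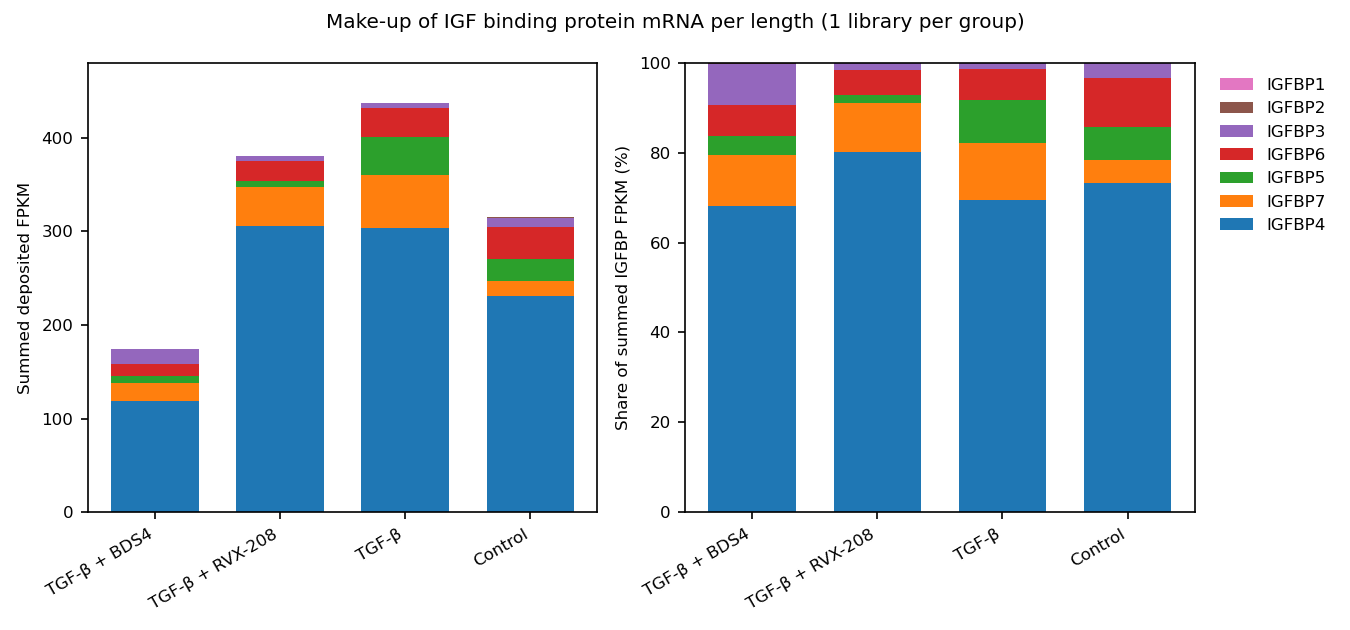
Deposited FPKM of IGFBP1 to IGFBP7 stacked per library (left, summed FPKM; right, share of the sum in percent), with 1 library per bar. The sum was 174 with BDS4, 381 with RVX-208, 438 with TGF-β and 315 in the control, IGFBP4 is the main segment throughout, and the IGFBP5 segment was 1.68% with RVX-208 against 9.47% with TGF-β.

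Proteases that cut IGF binding proteins, and inhibitors of those proteases, were examined as a list of 16 genes, of which 13 were scored. With BDS4 against TGF-β alone 7 were lower and 3 higher, beside 17.7% and 14.5% of all genes, with a median log2 ratio of -1.06 against -0.01 for all genes. PAPPA, which encodes the protease PAPP-A, had 5.05 CPM with BDS4, 25.7 CPM with RVX-208, 88.2 CPM with TGF-β alone and 63.9 CPM in the control. Its log2 ratio to TGF-β alone was -4.13 (-4.43 to -3.84) with BDS4 and -1.78 (-1.93 to -1.63) with RVX-208, both called lower. PLAU, the urokinase gene, had 12.7 CPM with BDS4, 268 CPM with RVX-208, 230 CPM with TGF-β alone and 86.0 CPM in the control, and the gelatinase gene MMP2 also fell with BDS4 (log2 ratio -4.84, -5.06 to -4.62). The stanniocalcin genes STC1 and STC2, whose products inhibit PAPP-A, were among the 3 higher genes with BDS4. STC1 had 156 CPM with BDS4, 114 CPM with RVX-208, 64.0 CPM with TGF-β alone and 36.6 CPM in the control. STC2 had 503, 201, 235 and 253 CPM in the same order. PAPPA and its inhibitors thus differed from TGF-β alone in opposite directions in the BDS4 library.

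With RVX-208 against TGF-β alone, 4 of the 13 were lower and 1 higher, beside 5.25% and 2.94% of all genes. The median log2 ratio was -0.23 for the list and -0.0008 for all genes. Besides PAPPA, the complement protease genes C1R and C1S and the metalloprotease gene ADAMTS1 were lower. C1R had 15.2 CPM with BDS4, 24.2 CPM with RVX-208, 62.0 CPM with TGF-β alone and 44.3 CPM in the control. The C1S calls with BDS4 and with RVX-208 ended when genes that share its exons were summed, at ratios of 0.701 and 0.864. HTRA1, a secreted serine protease that can cut IGFBP5, had 46.1 CPM with BDS4, 120 CPM with RVX-208, 60.01 CPM with TGF-β alone and 36.6 CPM in the control. Its ratio of 2.01 (1.87 to 2.15) with RVX-208 met the rule narrowly, and the call ended under total counts (1.96). With TGF-β against control 2 of 13 were higher, MMP2 and PLAU, and 0 lower, beside 5.32% and 4.37% of all genes (median 0.46 against -0.01 for all genes). Between the compounds STC2 was higher with BDS4 than with RVX-208, and PAPPA, HTRA1, MMP2 and PLAU lower, that is 1 and 4 of 13, beside 11.7% and 13.1% of all genes.

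Of 33 adaptor and kinase genes downstream of the receptor, 30 were scored. With BDS4 against TGF-β alone 6 of 30 were higher and 3 lower, beside 14.5% and 17.7% of all genes. The median log2 ratio was 0.34 for the list and -0.01 for all genes. IRS1, an adaptor that couples IGF1R to phosphoinositide 3-kinase, had 27.5 CPM with BDS4, 76.9 CPM with RVX-208, 78.3 CPM with TGF-β alone and 175 CPM in the control. It was lower with TGF-β than in the control (log2 ratio -1.16, -1.24 to -1.08) and lower again with BDS4 than with TGF-β alone (-1.51, -1.65 to -1.37). IRS2, its relative, was named after its values were seen, and had 125 CPM with BDS4, 62.9 CPM with RVX-208, 52.6 CPM with TGF-β alone and 40.0 CPM in the control. The 2 adaptors thus differed in opposite directions with BDS4. PIK3R3, a regulatory subunit of the kinase, and SOCS1, a feedback inhibitor of cytokine signalling, rose with BDS4 by log2 ratios of 1.67 (1.52 to 1.83) and 1.83 (1.38 to 2.29). SOCS2 fell by 2.23 on the log2 scale, to 15 counts with BDS4 against 76 with TGF-β alone. Called genes numbered 0 of the 30 with RVX-208 against TGF-β alone, beside 8.19% of all genes in either direction (median 0.13). With TGF-β against control FOXO4 was higher and IRS1 lower, 1 of 30 each beside 5.32% and 4.37% of all genes, and the FOXO4 ratio of 2.01 dropped to 1.92 under total counts. Between the compounds 4 were higher and 3 lower with BDS4, counts near the background of 11.7% and 13.1% of all genes, and the lower ones were IRS1, AKT2 and SOCS2.

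Of 10 further ligand, receptor and related genes, 5 were scored. LRP1, a large endocytic receptor that also binds IGFBP3, had 127 CPM with BDS4, 199 CPM with RVX-208, 320 CPM with TGF-β alone and 268 CPM in the control, and was lower with BDS4 (log2 ratio -1.34, -1.40 to -1.27). It was the only called gene of these 5 in the 4 comparisons. With BDS4 against TGF-β alone this made 1 of 5 lower and 0 higher, near the 17.7% and 14.5% of all genes (median log2 ratio -0.16). The calls were 0 of 5 with RVX-208 against TGF-β alone, beside 8.19% of all genes in either direction (median -0.23). They were also 0 with TGF-β against control, beside 9.68% (median 0.15), and between the compounds, beside 24.8% (median 0.21). IGFALS, the gene of the acid-labile subunit that holds IGFs in serum complexes, never exceeded 3 counts. Of 7 genes for IGF2 mRNA-binding proteins and linked RNAs, 6 were scored. With BDS4 against TGF-β alone H19 and PLAGL1 were higher and IGF2BP1 and HMGA2 lower, beside 14.5% and 17.7% of all genes (median log2 ratio -0.33). With RVX-208 against TGF-β alone H19 and PLAGL1 were higher and IGF2BP1 lower, beside 2.94% and 5.25% (median 0.04). PLAGL1 was near the limit of detection, with 25 counts with BDS4, 26 with RVX-208, 11 with TGF-β alone and 14 in the control. It entered the scored genes only through the compound libraries, at 1.23 CPM with BDS4 and 1.54 CPM with RVX-208. Its calls against TGF-β alone, and the counts that include them, are therefore descriptions only. IGF2BP1, an mRNA-binding protein gene of fetal tissues, had 1 count with BDS4, 21 with RVX-208, 74 with TGF-β alone and 71 in the control. Its log2 ratio to TGF-β alone was -6.09 (-11.42 to -3.57) with BDS4 and -1.43 (-2.20 to -0.71) with RVX-208. HMGA2, a chromatin protein gene, had 8.58 CPM with BDS4, 43.0 CPM with RVX-208, 41.5 CPM with TGF-β alone and 28.9 CPM in the control. IGF2BP2 stood at 136, 162, 160 and 176 CPM in the same order and was not called. With TGF-β against control 0 of the 6 were higher and H19 was lower, beside 5.32% and 4.37% of all genes. Between the compounds 0 were higher with BDS4 and IGF2BP1 and HMGA2 were lower, beside 11.7% and 13.1%.

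**Figure D4:**
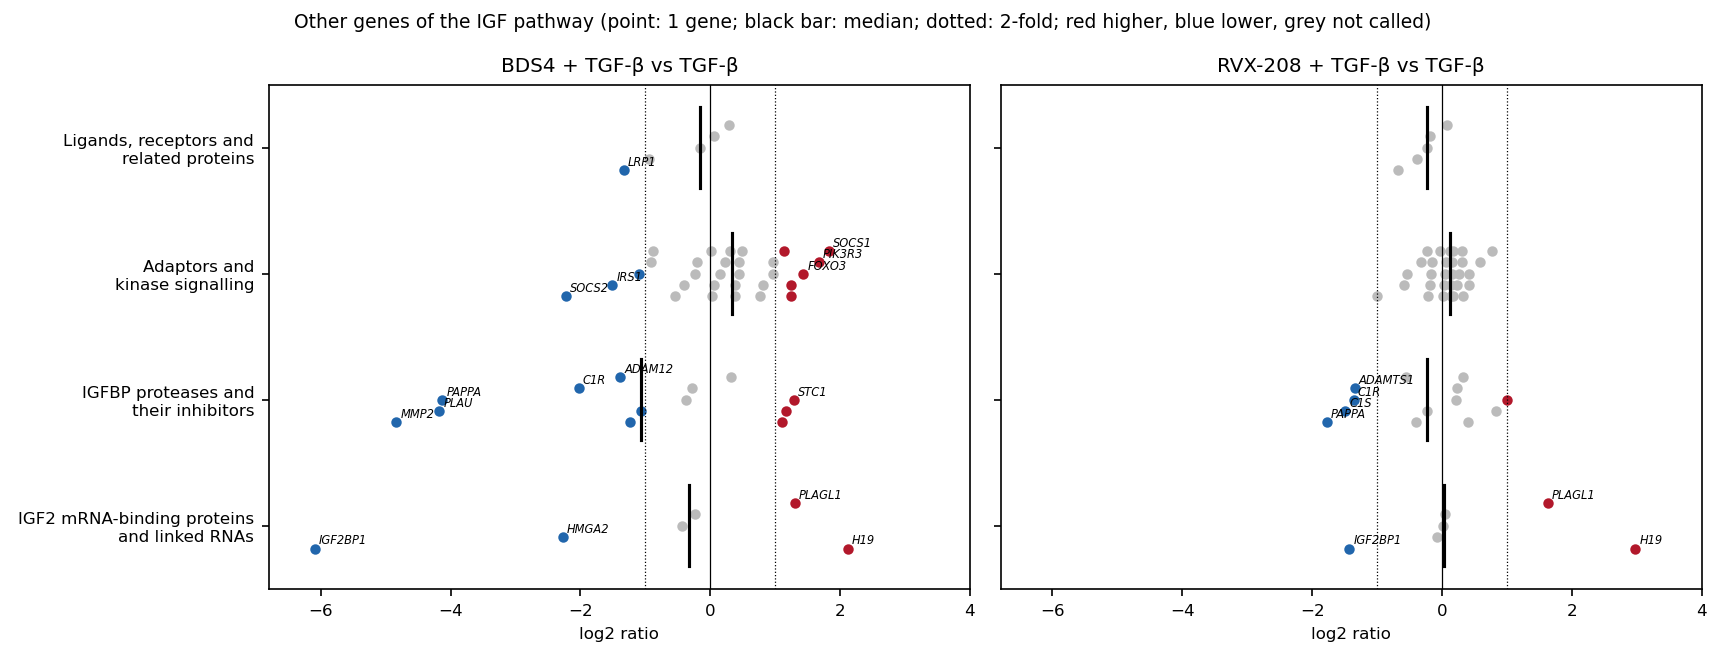
Log2 ratio (horizontal axis) of each scored gene in 4 lists of the IGF pathway (vertical axis) with BDS4 against TGF-β (left) and RVX-208 against TGF-β (right); red and blue points were called higher and lower, grey points were not called, vertical spread of points within a list carries no value, and black bars are medians. In the protease list the median was -1.06 with BDS4 and -0.23 with RVX-208, with PAPPA lower in both.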

How the data were processed

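RNA of 4 LX-2 libraries was analysed, 1 per condition, and each column was matched to its condition through the description that names it. Each gene has an unnormalised whole-number count, per the file headers. The deposited FPKM values were made with StringTie 1.3.0, per the series' design text, and CASAVA 1.8, TopHat2 2.0.6 and GRCh38 stand in the submitters' processing notes. The sources used here do not give the counting program, the annotation release or the strand setting of the counting. In 9069 genes with over 200 counts in each library, FPKM followed count over library total with 1 length per gene, to within 0.000417%.

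Counts were scaled with TMM factors (edgeR 4.0.16, R 4.3.3) of 0.943 for BDS4, 0.989 for RVX-208, 1.01 for TGF-β and 1.06 for control, computed over genes with 1 CPM by total counts in at least 1 library. Genes with at least 1 scaled CPM in at least 1 library were scored. Ratios carry 95% conditional exact (Clopper-Pearson) intervals, levels exact Poisson intervals, and list medians use a prior count of 2. Annotation came from GENCODE 29, which may differ from that used for counting. The rule was tried on simulated Poisson counts for 16099 genes per comparison, where 44 to 60 unchanged genes were still called. The simulation held no variation between cultures, so it cannot show how often the rule errs between separate cultures. Other work used Python 3.11.15, numpy 2.4.6, scipy 1.17.1, pandas 2.3.3 and matplotlib 3.10.9.

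The family, the pathway lists and the rules were chosen with earlier results of these data known. Named genes are all 10 members, INSR and IGF1, up to 4 called genes per list and comparison with the largest log2 ratios, and the 3 nearest patterns to IGFBP5, the member with the widest range. Other list genes are examples chosen after their values were seen. Alternatives were other scalings (total counts, DESeq2 1.42.0 size factors), filters, a 1.5-fold rule, FPKM ratios, summed overlapping genes and, chosen after seeing the data, merged exon lengths.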

Additional observations from a re-analysis of the deposited data

How the results depend on the processing

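No paired analysis was possible because each condition has 1 library, and for the same reason no library could be left out. Of 28 alternative counts of called members, 23 stayed within 1.5 times the reported count. For RVX-208 against TGF-β alone the count of 1 became 2 under total counts, DESeq2 size factors, FPKM ratios and the 1.5-fold rule, each time by adding IGF2. The share of all genes called in that comparison was 8.36%, 8.3%, 9.56% and 17.1% under these alternatives, in place of 8.19%. For TGF-β against control the 1.5-fold rule gave 5 members in place of 2, while the share of all genes went from 9.68% to 19.1%. None of the 144 alternative member ratios changed direction, and 3, all of IGF2 with RVX-208, passed the 2-fold rule. Counts over all genes under the 1.5-fold rule were 3074 for TGF-β against control, 8201 for BDS4 against TGF-β, 2745 for RVX-208 against TGF-β and 6901 for BDS4 against RVX-208, in place of 1559, 5180, 1318 and 3995. With a filter of 5 CPM, 863 of 12610 genes (6.84%) were called for TGF-β against control and 658 (5.22%) for RVX-208 against TGF-β. IGFBP2 drops out under that filter. Of 204 alternative ratios of called list genes, 7 lost the call, those of FOXO4, HTRA1 and C1S. Depth limits IGFBP1 and IGFBP2, whose largest counts were 11 and 56. With merged GENCODE exon lengths, chosen after seeing the data, the IGF2R to IGF1R ratio turned from below to above 1, at 1.19 with RVX-208 and 1.19 with TGF-β alone, and the share of IGFBP4 was 60.8% with BDS4, 74.9% with RVX-208, 63.4% with TGF-β alone and 64.8% in the control. Ratios of 1 gene between libraries do not depend on length. Of 32 alternative medians of the pathway lists, 23 moved by at least 0.005 on the log2 scale, by up to 0.21 under a 5 CPM filter and up to 0.62 when means were taken instead. The mean had the other sign for the adaptors with TGF-β against control and for the ligands and receptors between the compounds.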
